A study of Mus musculus with 45 samples.

Results

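Matrix metalloproteases (MMPs) are zinc enzymes that cut collagens, elastin, gelatin and other proteins of the extracellular matrix, and tissue inhibitors of metalloproteases (TIMPs) block them. Muscle macrophages use such enzymes to enter injured tissue, to clear debris and to reshape the matrix around regenerating fibres. The genes described here were 9 listed ones of 19752 genes measured on the arrays: the collagenases Mmp8 and Mmp13, the gelatinase Mmp9, the macrophage elastase Mmp12, the membrane-bound Mmp14, the secreted Mmp19, the membrane protease Adam8, and the inhibitors Timp1 and Timp2. The members were taken by name, each through the probe set with 1 gene symbol that had the highest mean over 45 arrays; each of the 9 had exactly 1 such probe set. All 9 passed the filter on low values that left 11074 genes in the tests.

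The samples were sorted muscle macrophages of C57Bl6 mice, all male, taken without injury (day 0) or on days after an injury by intramuscular cardiotoxin, a snake venom toxin that kills muscle fibres. DTR+ mice carried Foxp3.DTR, a diphtheria toxin receptor driven by the Foxp3 promoter, which lets diphtheria toxin (DT) remove regulatory T cells; DTR- mice did not carry it. The labels do not say from when the hours of DT are counted, or whether mice without a DT time in their titles received DT. The 45 arrays fell into 18 groups by day (0, 1, 4 or 7), DT time in the title, genotype and surface major histocompatibility complex class II (MHCII+ or MHCII-), with 2 arrays in 11 groups, 3 in 5 groups and 4 in 2 groups. Day 7 was sampled in a set titled 24 h of DT (age 8 weeks), a set titled 8 h of DT (12 weeks), and an MHCII+ set with no DT time in its titles (10 weeks), called the untimed set here. Day 1 arrays of both genotypes (8 weeks) were titled 24 h of DT, while the DTR- arrays of day 0 (10 weeks) and day 4 (8 weeks) gave no DT time. All gates were Ly6g- CD11b+ F4-80+, and the gates of day 1, day 4 and the 8 h set also left out SiglecF+ cells; those of days 1 and 4 further took CD45+ DAPI- cells. Day 0 therefore differed from day 1 in age, gate and DT labelling as well as in injury, and these cannot be told apart. The labels do not say that replicates are separate animals, so p-values measure the spread between sorted samples.

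A marker entry in the labels gives MHCII- for nearly all samples and disagrees with the titles. The titles were held to H2-Ab1, a class II chain, which was at least 13.67 (log2 intensity) in the 24 MHCII+ arrays and at most 12.45 in the 21 MHCII- arrays. Of 6 macrophage genes, Adgre1, Csf1r and Cd68 were at 12.35 or higher on every array. Mertk, Itgam and Fcgr1 went as low as 10.73, 10.71 and 10.09. The mean of the 6 genes was lowest in day 0 MHCII+ cells (11.86 and 12.04, against 12.50 and 12.60 in day 0 MHCII- cells). Same-group arrays correlated at 0.933 to 0.997 across genes. Neutrophil genes (12 genes, mean log2 intensity) lay between 6.45 and 7.07 on all arrays but 3: day 0 MHCII- replicate 1 at 9.95 and replicate 2 at 7.32, and replicate 3 of day 7 24 h DTR- MHCII+ at 7.90. T cell genes (6 genes) were at 8.83 in replicate 1 of day 7 8 h DTR+ MHCII+ and at 7.45 or lower on all other arrays. Values without the arrays that stand apart are given with the results below.

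Levels below are log2 intensities, differences are log2 differences between group means with their SE after ±, and a gene passed when its adjusted p (limma, Benjamini-Hochberg over 11074 genes) was under 0.05. Levels of different genes were not compared, since probe sets differ in brightness.

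**Figure D1:**
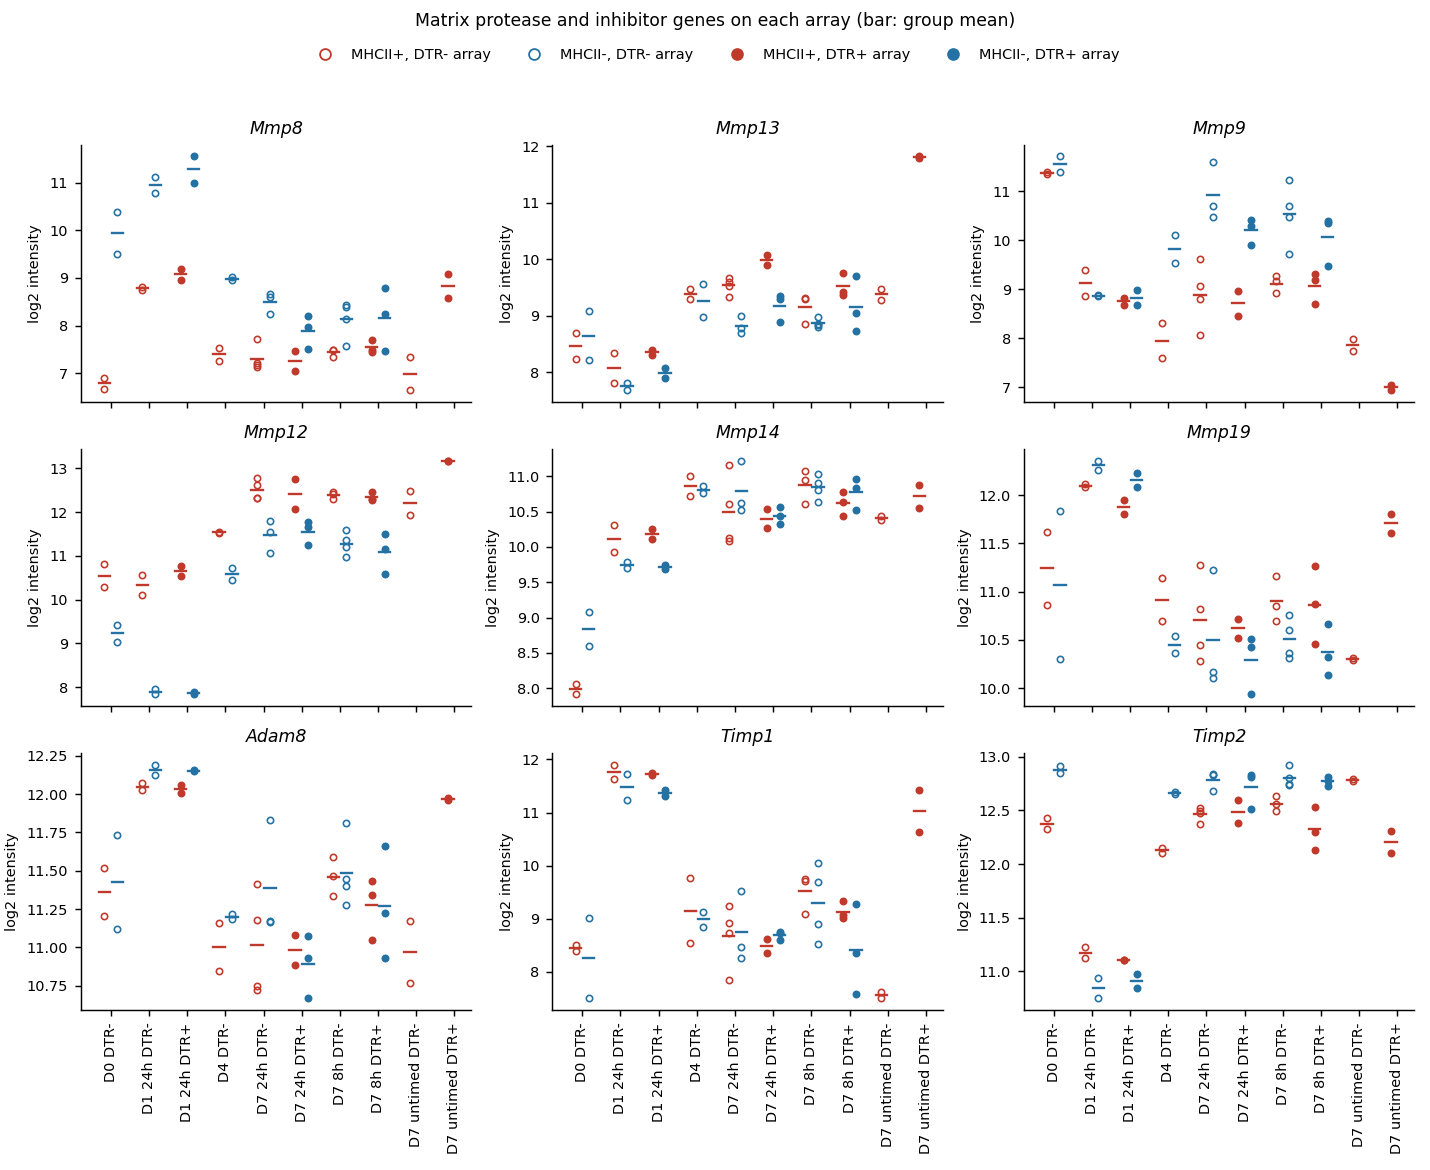
Log2 intensity of each of the 9 genes (panels) on every array (points), by day, DT time and genotype along the x axis; red is MHCII+, blue is MHCII-, open points are DTR- and filled points DTR+, and bars are group means. Timp1 was at 10.64 or above in the 4 day 1 groups and the untimed DTR+ group and at 10.06 or below elsewhere, Mmp13 reached 11.8 in the untimed DTR+ arrays only, and Mmp12 was above MHCII- in the MHCII+ group of each set.

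The first question was how these genes changed from uninjured muscle over the days of injury in DTR- mice. From day 0 to day 1, Timp1 rose about 10-fold in both subsets, Mmp9 and Timp2 fell, and Mmp8, Mmp14 and Adam8 rose. By day 4, Timp1, Mmp8, Mmp19 and Adam8 had fallen again while Mmp12, Mmp13, Mmp14 and Timp2 had risen, in both subsets. From day 4 to day 7 only Mmp12, in both subsets, and Timp2, in MHCII+ cells, passed the test. In MHCII+ cells 4 of 9 members rose and 2 fell from day 0 to day 1, when 35.6% of all genes passed, and 4 rose and 5 fell from day 1 to day 4, when 15.4% did. In MHCII- cells the counts were 5 and 4 (25.6% of all genes), then 4 and 4 (24.2%). In sorted bulk samples, fewer cells of a type and less RNA per cell cannot be told apart.

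Among the collagenases, Mmp8, an enzyme best known from neutrophil granules, was at 6.90 and 6.68 on the day 0 MHCII+ arrays and at 8.81 and 8.75 at day 1. The arrays of both days did not overlap, and the difference was 1.99 ± 0.32 (adjusted p = 1.2e-05). Its day 0 values lay under the level of the filter on low values (log2 7.57). In MHCII- cells Mmp8 rose by 1.00 ± 0.32 from 10.38 and 9.50 to 11.11 and 10.77 (adjusted p = 0.018). Neutrophil genes moved the other way in these cells: 8 of 10 tested fell from day 0 to day 1, from 9.95 and 7.32 to 7.06 and 7.07 as list means. Without day 0 MHCII- replicate 1, the Mmp8 difference was 1.44 (adjusted p = 0.0062). The call was lost without day 0 MHCII- replicate 2 or day 1 MHCII- replicate 1. The list's part in the day 0 level was not tested. Between days 1 and 4 Mmp8 fell, with differences of -1.39 ± 0.32 in MHCII+ cells (adjusted p = 0.0023) and -1.96 ± 0.32 in MHCII- cells (adjusted p = 1.6e-05). The first of these calls was lost without day 4 MHCII+ replicate 2.

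Mmp13, the broad collagenase of rodent tissue, followed another course. It was lowest at day 1, at 7.68 and 7.81 in MHCII- cells and at 7.81 and 8.34 in MHCII+ cells, and stood at 8.97 and 9.56 and at 9.29 and 9.47 at day 4. The rises from day 1 to day 4 were 1.52 ± 0.25 (adjusted p = 1.6e-05) in MHCII- cells and 1.31 ± 0.25 (adjusted p = 3e-04) in MHCII+ cells, with no overlap of arrays in either. The fall from day 0 to day 1 passed in MHCII- cells (-0.90 ± 0.25, adjusted p = 0.0061) but was -0.47 (adjusted p = 0.29) without day 0 replicate 1, the array with the highest neutrophil genes.

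Mmp9, the gelatinase that cuts denatured collagen and basement membrane collagen, was highest at day 0, at 11.36 and 11.39 in MHCII+ cells and at 11.71 and 11.39 in MHCII- cells. At day 1 it was at 9.39 and 8.86 and at 8.86 and 8.88. The falls were -2.25 ± 0.39 (adjusted p = 4.5e-05) and -2.68 ± 0.39 (adjusted p = 2.9e-06). Without day 0 MHCII- replicate 1 the second was -2.53 (adjusted p = 2.9e-04). Mmp9 is also a neutrophil granule enzyme. At day 0 the neutrophil list was at 6.53 and 6.57 in MHCII+ cells and at 9.95 and 7.32 in MHCII- cells, and Mmp9 differed between these subsets by -0.18 ± 0.39 (adjusted p = 0.8). The list's part in the Mmp9 level was not tested. After day 1 the subsets parted: Mmp9 fell by a further 1.17 ± 0.39 in MHCII+ cells to 7.59 and 8.31 at day 4 (adjusted p = 0.039), and stood at 10.10 and 9.53 in MHCII- cells (0.95 ± 0.39, adjusted p = 0.077, not passed). The MHCII+ fall was lost without day 4 MHCII+ replicate 2 and without either of the day 1 MHCII+ arrays.

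Mmp12, the elastase named for macrophages, rose late. In MHCII- cells it fell from 9.41 and 9.04 at day 0 to 7.84 and 7.96 at day 1, then rose to 10.44 and 10.73 at day 4 and to 11.55, 11.79 and 11.08 at day 7 of the 24 h set. The fall was -1.33 ± 0.25 (adjusted p = 1.6e-04), or -1.14 without day 0 replicate 1 (adjusted p = 0.0097). The step from day 1 to day 4 was 2.69 ± 0.25, a 6.43-fold rise (adjusted p = 7.9e-10). In MHCII+ cells Mmp12 was at 10.11 and 10.55 at day 1, 11.53 and 11.54 at day 4, and 12.61, 12.33, 12.77 and 12.33 at day 7, and each of these sets of arrays lay above the one before. The last step was 0.97 ± 0.22 in MHCII+ cells (adjusted p = 0.011) and 0.89 ± 0.23 in MHCII- cells (adjusted p = 0.048). Without replicate 3 of the 24 h DTR- MHCII+ arrays, the array with raised neutrophil genes, the first was 0.89 (adjusted p = 0.038).

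Mmp14, a membrane-anchored collagenase that activates secreted MMPs at the cell surface, rose most in MHCII+ cells, from 8.06 and 7.92 at day 0 to 10.31 and 9.93 at day 1 (2.13 ± 0.24, adjusted p = 4.4e-08). In MHCII- cells it rose by 0.91 ± 0.24 (adjusted p = 0.0052), or by 0.67 without day 0 replicate 1 (adjusted p = 0.13). The 2 rises differed by 1.22 ± 0.34 (adjusted p = 0.033). From day 1 to day 4 it rose by 0.75 ± 0.24 in MHCII+ cells (adjusted p = 0.034), a call lost without any 1 of the 4 arrays, and by 1.06 ± 0.24 in MHCII- cells (adjusted p = 0.0013). It lay between 10.09 and 11.22 on the DTR- arrays of day 4 and the 24 h set of day 7.

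Mmp19, a basement membrane protease, and Adam8, a membrane protease of leukocytes that sheds surface proteins, both had their highest DTR- levels at day 1. Mmp19 was at 12.08 and 12.11 in MHCII+ cells and at 12.36 and 12.26 in MHCII- cells, and its differences from day 1 to day 4 were -1.18 ± 0.35 and -1.86 ± 0.35 (adjusted p = 0.02 and 1.4e-04); the first was lost in 3 of 4 leave-one-out fits. Its rise from day 0 passed in MHCII- cells (2.36-fold, adjusted p = 0.0082), where the day 0 arrays stood apart at 10.30 and 11.84; without the first, replicate 1, the difference was 0.47 (adjusted p = 0.47). Adam8 rose by 0.69 ± 0.23 in MHCII+ cells and by 0.73 ± 0.23 in MHCII- cells to day 1 (adjusted p = 0.021 and 0.018). Each of these 2 Adam8 calls was lost without any of 3 of its 4 arrays, among them day 0 replicate 1. From day 1 to day 4 Adam8 fell, with differences of -1.05 ± 0.23 and -0.96 ± 0.23 (adjusted p = 0.0018 and 0.0023), the first of which was lost without day 4 MHCII+ replicate 2.

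Of the inhibitors, Timp1, an inducible secreted inhibitor of most soluble MMPs, was at 8.39 and 8.50 in day 0 MHCII+ cells and at 11.90 and 11.64 at day 1. In MHCII- cells it went from 7.50 and 9.01 to 11.72 and 11.25. The rises were 3.32 ± 0.49 and 3.22 ± 0.49 (adjusted p = 3.8e-06 and 5.2e-06), 10.0-fold and 9.35-fold, and they passed without any 1 of their arrays; without day 0 MHCII- replicate 1 the second was 2.47 (adjusted p = 0.0021). From day 1 to day 4 the differences were -2.61 ± 0.49 and -2.49 ± 0.49 (adjusted p = 2.8e-04 and 2.3e-04).

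Timp2, a constitutive inhibitor that also takes part in the activation of pro-Mmp2 by Mmp14, moved in the opposite direction. It fell from 12.43 and 12.32 to 11.12 and 11.22 in MHCII+ cells (-1.20 ± 0.11, adjusted p = 3.5e-10) and from 12.91 and 12.84 to 10.75 and 10.94 in MHCII- cells (-2.04 ± 0.11, adjusted p = 5e-16; 6.8e-13 without day 0 MHCII- replicate 1). The fall was larger in MHCII- cells, by 0.83 ± 0.15 (adjusted p = 6.8e-04). At day 4 Timp2 had risen to 12.11 and 12.15 and to 12.67 and 12.65, below the day 0 arrays in both subsets. The rise was also larger in MHCII- cells, with a difference between the steps of -0.86 ± 0.15 (adjusted p = 0.0014).

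**Figure D2:**
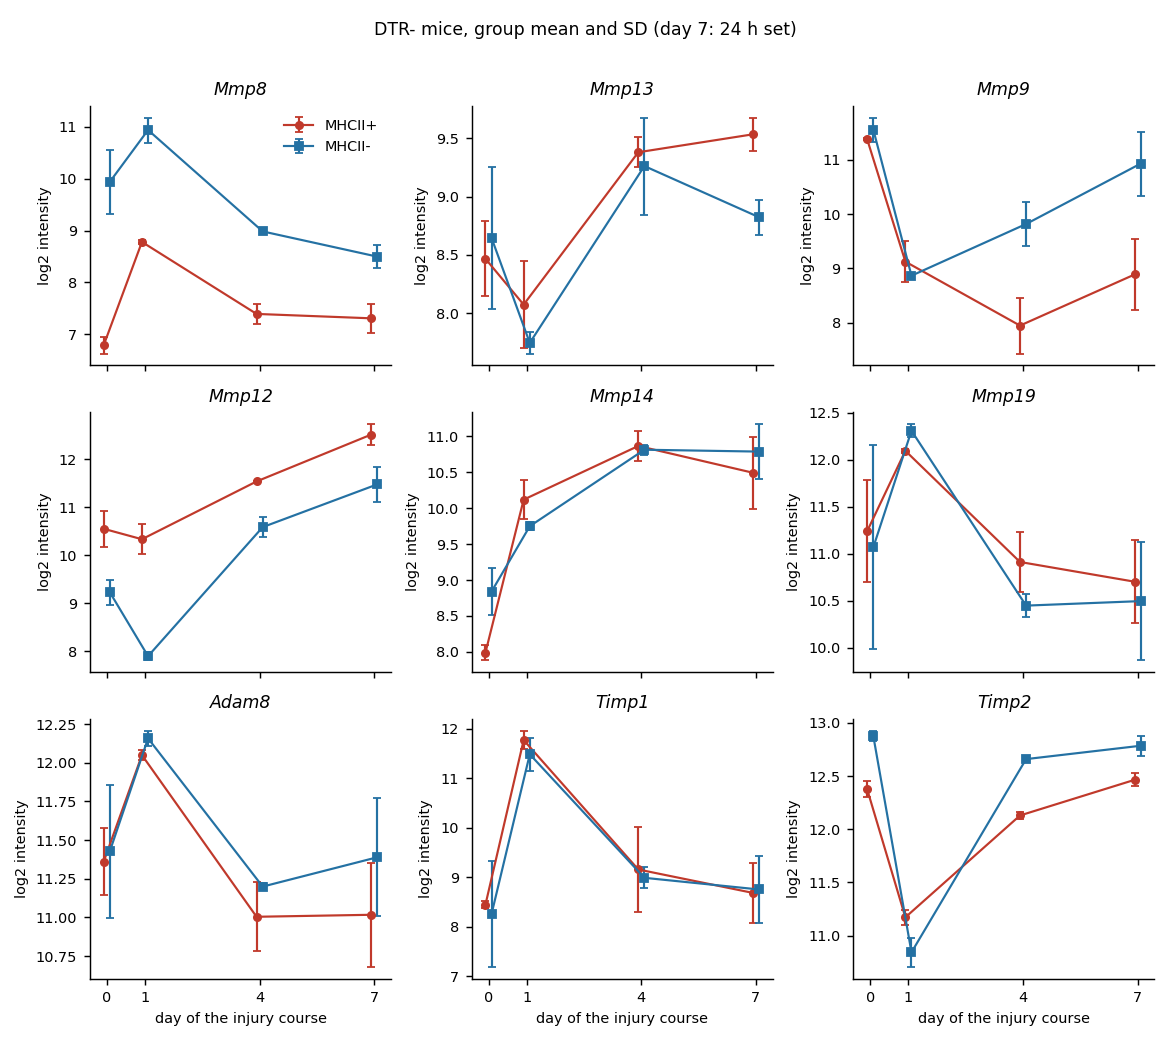
Mean log2 intensity (y axis) of the 9 genes in DTR- mice by day (x axis; day 7 is the 24 h set), with bars for the SD of 2 to 4 arrays; red circles are MHCII+ and blue squares MHCII-. Timp1, Mmp19 and Adam8 peak at day 1 and Timp2 has its minimum there, while the Mmp9 curves part between day 1 and day 4.

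Markers of other cell types moved over the same days. The monocyte list (Ccr2, Plac8, Vcan and Chil3) was at 8.50 and 8.95 in day 0 MHCII+ cells, 11.21 and 11.46 at day 1, and 9.79 and 10.33 at day 4; in MHCII- cells it was at 9.23 and 9.58, 12.33 and 12.23, and 10.27 and 10.85. Several other lists were lowest at day 1 of these days in both subsets. In MHCII+ cells over days 0, 1 and 4, fibroblast genes had means of 7.64, 7.04 and 7.44. Skeletal muscle genes had 7.98, 7.52 and 8.04 there, and cell cycle genes 8.67, 7.89 and 8.21. In MHCII- cells over these days, fibroblast genes had means of 7.72, 7.02 and 7.49, and skeletal muscle genes 8.15, 7.50 and 8.03. Cell cycle genes had 8.07, 6.88 and 8.95 in MHCII- cells, and MHCII genes 11.29, 8.70 and 10.60. Of 7 fibroblast genes tested, 2 fell from day 0 to day 1 and 4 rose from day 1 to day 4 in these cells, and of 7 skeletal muscle genes 5 fell and 3 rose. In MHCII+ cells dendritic cell genes fell from 8.56 and 8.21 at day 0 to 7.54 and 7.52 at day 1, with 4 of 4 tested passing. The part of these contents in the values of the members was not tested.

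Single arrays bore on several counts over days. In MHCII+ cells the count from day 1 to day 4 was 9 of 9 members and dropped to 4 without day 4 MHCII+ replicate 2. In MHCII- cells the count from day 0 to day 1 was 9 and became 5 without day 0 replicate 1 or without day 1 replicate 1. From day 4 to day 7, 2 members rose in MHCII+ cells (2.46% of all genes passed) and 1 in MHCII- cells (1.17%). The MHCII+ count became 0 without day 4 replicate 2 or 3 and 1 without day 7 replicate 1 or 2, and the MHCII- count became 0 without day 4 replicate 1 or 2 or day 7 replicate 1 or 2. The gate and the DT labelling also differed between day 4 and the 24 h set, and the DT labelling differed between day 1 and day 4. These cannot be told apart from the days.

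The difference between the subsets' steps passed for 2 of 9 members from day 0 to day 1 (Mmp14 and Timp2; 4.66% of all genes), for 3 from day 1 to day 4 (1.23%) and for 0 from day 4 to day 7 (0.0452%). The 3 were Mmp9 (-2.12 ± 0.56, adjusted p = 0.048), Mmp12 (-1.48 ± 0.36, adjusted p = 0.029) and Timp2, given above. Timp2 passed without any 1 array in both steps. The first count became 1 when any of 5 arrays was left out: day 0 MHCII+ replicate 2, day 0 MHCII- replicate 2, day 1 MHCII+ replicate 1, or day 1 MHCII- replicate 1 or 2. The second became 1 without any of 6: day 1 MHCII+ replicate 2, day 1 MHCII- replicate 1 or 2, day 4 MHCII+ replicate 2, or day 4 MHCII- replicate 1 or 2. Mmp9 was lost in 7 of its 8 leave-one-out fits, and so was Mmp12. Mmp9 was also lost with quantile normalization (adjusted p = 0.07), with log2(value + 16) (0.055) and with no filter on low values (0.071).

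The second question was which of the genes differed between MHCII+ and MHCII- macrophages. Mmp12 was higher in MHCII+ cells in all 8 comparisons and passed in 7 of them, while Mmp8 was lower in all 8 and passed in 5. Mmp9 was lower in MHCII+ cells from day 4 on, in 5 comparisons that all passed, and did not pass at day 0 or day 1. Timp2 was lower in MHCII+ cells in 4 comparisons that passed, and Mmp19, Adam8 and Timp1 passed in none of the 8. Other markers differed with the subsets: dendritic cell genes were higher in MHCII+ cells in all 8, with 1 to 3 of 4 tested passing (in DTR- cells, 8.56 and 8.21 against 6.75 and 6.85 at day 0, and 7.60 to 7.95 against 6.75 to 6.83 in the 24 h set). Monocyte genes were at 11.46 and 11.21 in MHCII+ and 12.33 and 12.23 in MHCII- cells of day 1 DTR- mice. The part of either list in the differences of the members was not tested.

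Mmp12 in DTR- cells at day 1 was at 10.11 and 10.55 on MHCII+ arrays and at 7.84 and 7.96 on MHCII- arrays, a difference of 2.43 ± 0.25 (5.40-fold, adjusted p = 2.3e-08). In DTR+ cells of day 1 the arrays were at 10.54 and 10.78 against 7.88 and 7.84 (2.80 ± 0.25, adjusted p = 1.1e-09). These were the widest subset differences of Mmp12. It was 1.32 ± 0.25 at day 0 (adjusted p = 2.4e-04; 1.51 without MHCII- replicate 1) and 0.95 ± 0.25 at day 4 (adjusted p = 0.039), where it was lost when any 1 of the 4 arrays was left out. At day 7 it was 1.04 ± 0.19 and 1.11 ± 0.19 in the DTR- arrays of the 24 h and 8 h sets and 1.26 ± 0.21 in the DTR+ arrays of the 8 h set. The first was 0.95 without MHCII+ replicate 3, the array with raised neutrophil genes, and the last 1.29 without MHCII+ replicate 1, the array with raised T cell genes; both passed. The value that did not pass was 0.86 ± 0.23 (adjusted p = 0.053), in DTR+ cells of the 24 h set.

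Mmp8 showed its widest gap at day 0, with 6.90 and 6.68 on MHCII+ arrays and 10.38 and 9.50 on MHCII- arrays (-3.15 ± 0.32, adjusted p = 2.9e-09). These MHCII+ values lay under the level of the filter on low values (log2 7.57). Of the 10 neutrophil genes tested, 9 were lower in MHCII+ cells there. With replicate 1 left out, whose neutrophil list was at 9.95, the Mmp8 difference was -2.71 (adjusted p = 2.4e-06). At day 1 the gap was -2.16 ± 0.32 in DTR- cells and -2.20 ± 0.32 in DTR+ cells (adjusted p = 1.5e-05 and 1.3e-05), with the neutrophil list at 7.03 to 7.07 in MHCII- cells and 6.52 to 6.57 in MHCII+ cells and only Lcn2 of its genes passing. At day 4 the gap was -1.59 ± 0.32 (adjusted p = 0.002; lost without day 4 MHCII+ replicate 2), with none of the list's genes passing. In DTR- cells of the 24 h set it was -1.19 ± 0.24 (adjusted p = 0.0023; -1.16 without MHCII+ replicate 3), where the list was at 6.54 to 6.64 in MHCII- cells and at 6.51 to 7.90 in MHCII+ cells.

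**Figure D3:**
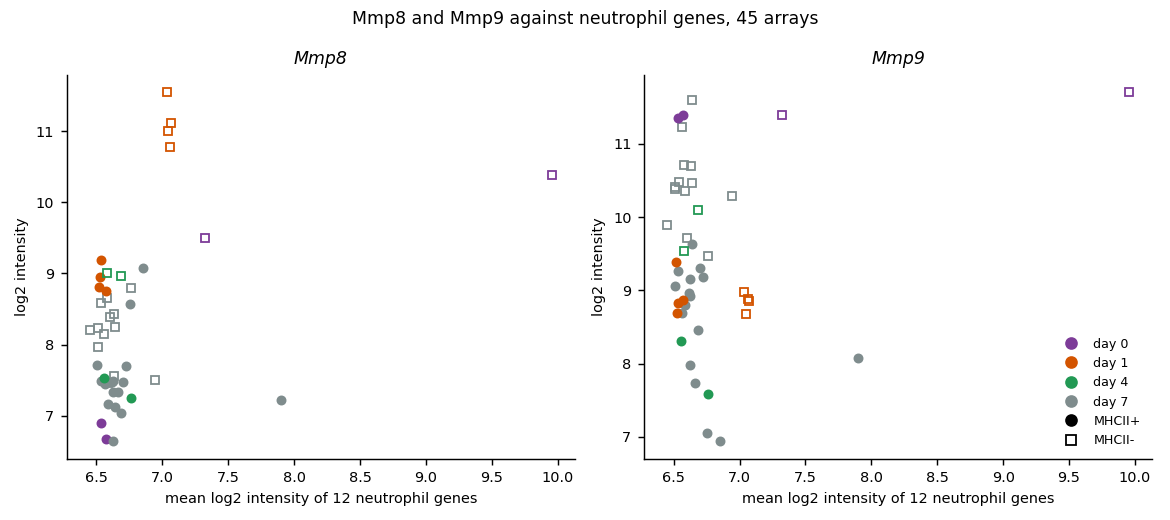
Log2 intensity of Mmp8 (left) and Mmp9 (right) on each of 45 arrays against the mean log2 intensity of 12 neutrophil genes on the same array; colours are days, filled circles MHCII+ and open squares MHCII-. Day 0 MHCII- replicate 1 lies far to the right at 9.95, while the highest Mmp8 values (day 1 MHCII-) sit at 7.03 to 7.07 and the day 0 MHCII+ arrays have Mmp9 above 11 at 6.53 and 6.57.

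In DTR- cells of day 1 the subset difference of Mmp9 was 0.26 ± 0.39, which did not pass. At day 4 it was -1.86 ± 0.39 (adjusted p = 0.0041), lost without day 4 MHCII+ replicate 2 or MHCII- replicate 1. In DTR- cells of the 24 h set its 4 MHCII+ arrays lay at 8.80, 9.06, 8.07 and 9.62 and its 3 MHCII- arrays at 10.48, 10.70 and 11.59 (-2.04 ± 0.30, adjusted p = 2.4e-05). The arrays did not overlap, and the difference was -1.76 without MHCII+ replicate 3 (adjusted p = 2.6e-04). In the 8 h set the DTR- difference was -1.41 ± 0.30 (adjusted p = 0.0046), from 8.93, 9.16 and 9.26 against 10.69, 9.71, 11.23 and 10.47. In DTR+ cells the differences were -1.49 ± 0.36 in the 24 h set (adjusted p = 0.02) and -1.01 ± 0.32 in the 8 h set (adjusted p = 0.047); the first was lost without MHCII+ replicate 1 or 5 or MHCII- replicate 2, and the second in 5 of 6 leave-one-out fits, among them that without MHCII+ replicate 1, the array with raised T cell genes (-1.07, adjusted p = 0.11).

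Timp2 was lower in MHCII+ cells at day 0 (-0.50 ± 0.11, adjusted p = 9.6e-04; -0.47 without MHCII- replicate 1), day 4 (-0.53 ± 0.11, adjusted p = 0.0028), in DTR- cells of the 24 h set (-0.32 ± 0.08, adjusted p = 0.018; lost in 3 of 7 leave-one-out fits) and in DTR+ cells of the 8 h set (-0.45 ± 0.09, adjusted p = 0.0013; -0.35 without MHCII+ replicate 1, adjusted p = 0.026). At day 1, where its level was lowest, the sign was the other way, at 0.33 ± 0.11 in DTR- cells and 0.20 ± 0.11 in DTR+ cells, neither of which passed. Mmp14 was lower in MHCII+ cells at day 0 (-0.85 ± 0.24, adjusted p = 0.012), a call lost without replicate 2 of either subset and kept without MHCII- replicate 1 (-1.08). Mmp13 was higher in MHCII+ cells in DTR- mice of the 24 h set (0.71 ± 0.19, adjusted p = 0.021), from 9.33, 9.67, 9.53 and 9.60 against 8.78, 8.99 and 8.70, lost without MHCII+ replicate 3 or MHCII- replicate 1 or 3.

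**Figure D4:**
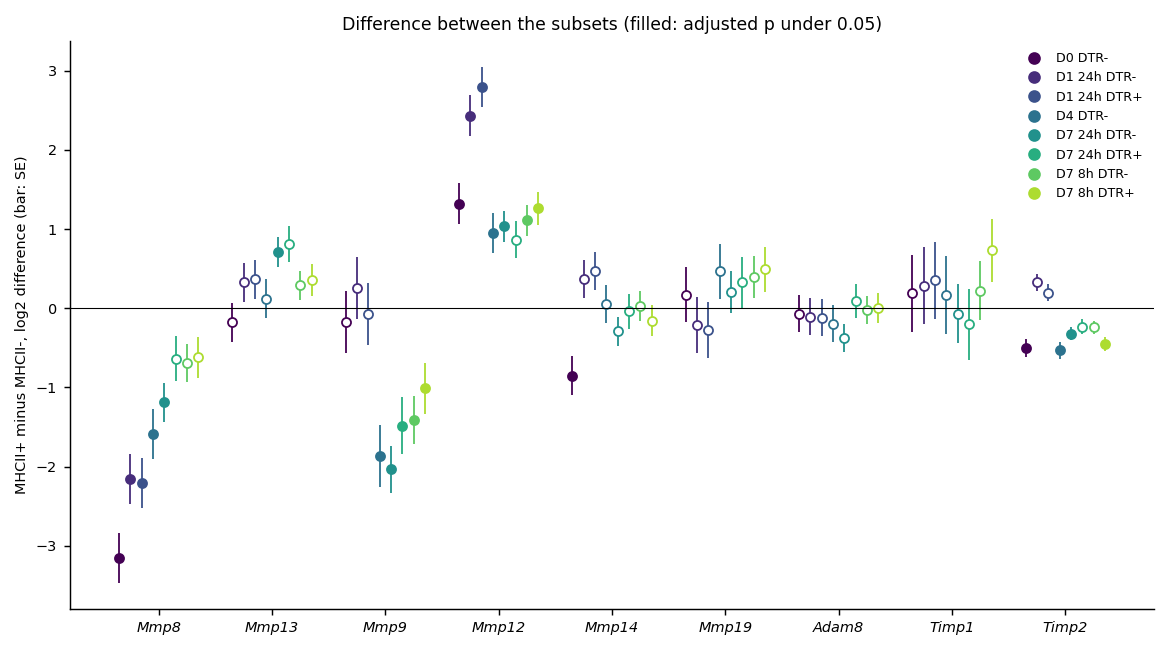
Log2 difference MHCII+ minus MHCII- (y axis) with its SE as a bar for each of the 9 genes (x axis) in 8 comparisons (colours); filled points passed at an adjusted p under 0.05. All 8 Mmp12 points lie above 0 and all 8 Mmp8 points below it, and the Mmp9 points lie near 0 at days 0 and 1 and at -1.01 or lower afterwards.

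Counts of members in these comparisons were read against the share of all genes that passed. At day 0, 1 member was higher in MHCII+ cells and 3 were lower, with 19% of all genes passing. At day 1 the counts were 1 and 1 in DTR- cells (2.45%) and 1 and 1 in DTR+ cells (2.26%). At day 4 they were 1 and 3 (2.12%), or 0 members without day 4 MHCII+ replicate 2 and 2 without day 4 MHCII- replicate 1. In the 24 h set they were 2 and 3 in DTR- cells (5.23%), or 3 members without MHCII- replicate 1 and likewise without MHCII+ replicate 3, the array with raised neutrophil genes. In its DTR+ cells they were 0 and 1 (1.37%), or 0 members without MHCII- replicate 2 or MHCII+ replicate 1. In the 8 h set they were 1 and 1 in DTR- cells (2.21%) and 1 and 2 in DTR+ cells (7.98%).

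The third question was whether the genes differed between DTR+ and DTR- mice, the genotypes that differ in whether DT can remove regulatory T cells. Foxp3 did not reach the filter on low values in these macrophages, so the arrays give no measure of that removal, and the titles of the untimed set give no DT time. In the untimed day 7 set of MHCII+ cells, 6 of 9 members were higher and 1 was lower in DTR+ mice, when 11.5% of all genes passed. Timp1 was 11.01-fold higher, Mmp13 5.38-fold, Mmp8 3.56-fold and Mmp19 2.65-fold. The DTR- arrays of Timp1 (7.52 and 7.62) and Mmp8 (6.64 and 7.34) lay near or under the level of the filter on low values (log2 7.57). Adam8 and Mmp12 were about 2-fold higher and Timp2 was lower. The median difference of the 9 members was 1.00, beside -0.01 over all genes tested. The members were chosen with earlier results of these data known, so this count and median only describe the list.

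In that set Timp1 was at 11.42 and 10.64 in DTR+ arrays and at 7.52 and 7.62 in DTR- arrays (3.46 ± 0.49, adjusted p = 3.3e-06). Mmp13 was at 11.82 and 11.79 against 9.27 and 9.48 (2.43 ± 0.25, adjusted p = 4.7e-09). Mmp8 was at 9.08 and 8.57 against 6.64 and 7.34 (1.83 ± 0.32, adjusted p = 7.8e-05). None of these arrays overlapped between the genotypes. Mmp13 on these DTR+ arrays was above its level on every other array, the next highest being 10.07. Mmp19 was at 11.81 and 11.61 against 10.31 and 10.29 (1.41 ± 0.35, adjusted p = 0.0058), and Adam8 at 11.98 and 11.96 against 10.77 and 11.17 (1.00 ± 0.23, adjusted p = 0.003).

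Mmp12 was at 13.17 and 13.18 against 11.94 and 12.49 (0.96 ± 0.25, adjusted p = 0.0098), and Timp2 at 12.10 and 12.31 against 12.77 and 12.80 (-0.58 ± 0.11, adjusted p = 2.4e-04). Both members that did not pass were metalloproteases: Mmp9 was at 6.94 and 7.05 against 7.97 and 7.74 (-0.86 ± 0.39, adjusted p = 0.18) and Mmp14 at 10.55 and 10.88 against 10.39 and 10.44 (0.30 ± 0.24, adjusted p = 0.54). Timp1, Mmp13, Mmp8 and Timp2 passed without any 1 of the 4 arrays. Adam8 was lost without DTR- replicate 1, Mmp19 without DTR+ replicate 1, and Mmp12 without either DTR+ array or DTR- replicate 1.

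Markers of other cells differed in this set too. The monocyte list was at 10.37 and 10.89 in DTR+ arrays and at 8.26 and 8.35 in DTR- arrays; 2 of its 4 tested genes passed, Chil3 (6.74 ± 0.55) and Plac8 (1.61 ± 0.41). Of 7 skeletal muscle genes tested, 6 were lower in DTR+ arrays, as were Adgre1 and Mertk among 6 macrophage genes. Dendritic cell genes were at 8.00 and 7.88 against 7.18 and 7.13 (1 of 4 tested passed, Clec9a), T cell genes at 6.89 and 6.95 against 7.33 and 7.20 (1 of 2 passed, Cd4) and satellite cell genes at 6.99 and 7.04 against 7.31 and 7.35 (0 of 4). None of 10 neutrophil genes passed, and their list was at 6.75 and 6.85 against 6.62 and 6.66. The part of any of these contents in the values of the 7 members was not tested.

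The promoters of Mmp13, Mmp12 and Timp1 are shown: Mmp13 and Timp1 had the largest rises in the untimed set, and the Mmp12 start is the other one with an AP-1 match, chosen after the matches were seen. The RefSeq promoter table used here (GRCm38.p6) gave starts for 7 of the 9 members, and the 250 bases before each start were searched on both strands for TGANTCA, the binding motif of AP-1, and for an interferon response element, GAAA, 2 bases of any kind and GAAA. Of 32851 mouse starts, 6.75% held the first and 2.98% the second. The 150 bases before a start are printed, with any match in capitals: Mmp13 (chr9:7272364-7272513, + strand), the second of its 2 starts for Mmp12 (chr9:7347224-7347373, + strand) and Timp1 (chrX:20870016-20870165, + strand).
Mmp13: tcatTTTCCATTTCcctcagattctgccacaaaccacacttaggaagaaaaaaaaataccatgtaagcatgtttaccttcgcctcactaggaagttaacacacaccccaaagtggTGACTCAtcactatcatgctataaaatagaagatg
Mmp12: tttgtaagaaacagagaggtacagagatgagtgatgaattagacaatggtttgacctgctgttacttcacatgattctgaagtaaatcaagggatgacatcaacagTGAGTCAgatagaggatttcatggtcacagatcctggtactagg
Timp1: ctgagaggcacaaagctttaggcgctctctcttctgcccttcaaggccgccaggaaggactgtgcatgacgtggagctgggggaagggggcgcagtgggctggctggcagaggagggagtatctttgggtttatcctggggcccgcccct

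Mmp13 held TGANTCA with its first base at -35 and the interferon element at -146, read on the opposite strand; the motifs do not overlap. The second Mmp12 start held TGANTCA at -44, and its first start held neither. The Timp1, Mmp8, Mmp14, Adam8 and Timp2 windows held neither. A looser NF-kB pattern (GGG, 5 bases of any kind, CC) was found in 45.8% of all starts, in 1 window of Mmp12 and in that of Timp1. A match describes the letters only, and a window without one says nothing about a factor.

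In the sets with a DT time, 0 of 54 tests of the 9 members in 6 comparisons of DTR+ with DTR- passed, and the smallest adjusted p was 0.17. The shares of all genes that passed were 0.0542% and 0.00903% in MHCII+ and MHCII- cells of the 24 h set, 0.488% and 0.0181% in the 8 h set, and 0% and 0% at day 1. By limma, 25 and 154 genes had an unadjusted p under 0.05 at day 1. The median difference of the 9 members was -0.21 to -0.01 in these 6 comparisons, beside -0.04 to 0.04 over all genes tested.

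Mmp13 was higher in DTR+ cells in all 6 of these comparisons, by 0.24 to 0.45, although none passed. Its widest difference was in MHCII+ cells of the 24 h set, at 9.90 and 10.07 against 9.33, 9.67, 9.53 and 9.60, where the arrays did not overlap (0.45 ± 0.21, adjusted p = 0.76). Its 95% interval there, from the SE and 27 residual degrees of freedom, was 0.02 to 0.89. In MHCII- cells of the 24 h set the intervals lay below 0 for Mmp8 (-0.60, from -1.14 to -0.07), Mmp9 (-0.73, from -1.39 to -0.07) and Adam8 (-0.50, from -0.89 to -0.11), and none of these passed (adjusted p = 0.72 each). The intervals of Timp1 in MHCII+ cells were wide, from -1.07 to 0.68 in the 24 h set and from -1.20 to 0.44 in the 8 h set. Neither holds the 3.46 of the untimed set. In MHCII- cells of the 8 h set Timp1 was lower in DTR+ mice by -0.89 ± 0.37, with an interval of -1.66 to -0.12, but did not pass (adjusted p = 1.0 over all genes). Mmp9 was below 0 in all 7 genotype comparisons and passed in none. Timp1 (-0.89 to -0.05), Mmp19 (-0.22 to -0.03) and Adam8 (-0.50 to -0.004) were below 0 in all 6 comparisons with a DT time. These 3 genes were above 0 in the untimed set only. Timp2 in MHCII+ cells of the 8 h set was at 12.14, 12.53 and 12.30 against 12.56, 12.63 and 12.50 (-0.24 ± 0.09, interval -0.42 to -0.06, adjusted p = 0.17), or -0.15 without DTR+ replicate 1, the array with raised T cell genes (adjusted p = 0.82). It passed without DTR+ replicate 3, at -0.34 (adjusted p = 0.026), which made the count there 1.

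Whether the genotype difference itself depended on the set was tested in MHCII+ cells of day 7, a comparison added after the data had been seen. The untimed difference exceeded that of the 24 h set for Timp1 (3.66 ± 0.65, adjusted p = 2.2e-04), Mmp13 (1.97 ± 0.33, adjusted p = 7.7e-05), Mmp8 (1.88 ± 0.42, adjusted p = 0.0031), Mmp19 (1.49 ± 0.47, adjusted p = 0.043) and Adam8 (1.03 ± 0.31, adjusted p = 0.033), and was lower for Timp2 (-0.60 ± 0.14, adjusted p = 0.0062). Mmp12 did not pass (1.05 ± 0.34, adjusted p = 0.05 after rounding). That made 6 of 9 members, with 7.52% of all genes passing. Against the 8 h set 5 members passed, with 7.9% of all genes: Timp1 (3.84 ± 0.63), Mmp13 (2.06 ± 0.32), Mmp8 (1.72 ± 0.41), Mmp19 (1.44 ± 0.45) and Adam8 (1.18 ± 0.30).

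Both tests use the same untimed arrays, and each difference holds the DTR- levels of its sets as well as the DTR+ levels. Timp1 means in DTR- MHCII+ cells were 7.57 (untimed, its lowest of 18 groups), 8.68 (24 h) and 9.52 (8 h). Its DTR+ means were 11.03, 8.49 and 9.14. For Timp2 the DTR- means were 12.78, 12.46 and 12.56 and the DTR+ means 12.21, 12.49 and 12.32. For Mmp13 they were 9.37, 9.53 and 9.15 and then 11.80, 9.99 and 9.52. The counts became 3 and 2 without untimed DTR- replicate 1, and likewise 3 and 2 without untimed DTR+ replicate 1; Timp1 and Mmp13 passed without any 1 array. Mmp19 was lost in 8 of 10 leave-one-out fits against either set, and Adam8 in 6 of 10 against the 24 h set. The untimed and 24 h sets had the same gate in the labels and differ in age and DT labelling; the 8 h set differs from the untimed set in age, gate and DT labelling. These cannot be told apart. Between the subsets of 1 set, the genotype difference passed for 0 of 9 members in the 24 h set, the 8 h set and day 1 (0%, 0% and 0% of all genes, with 1012, 856 and 26 genes at an unadjusted limma p under 0.05).

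**Figure D5:**
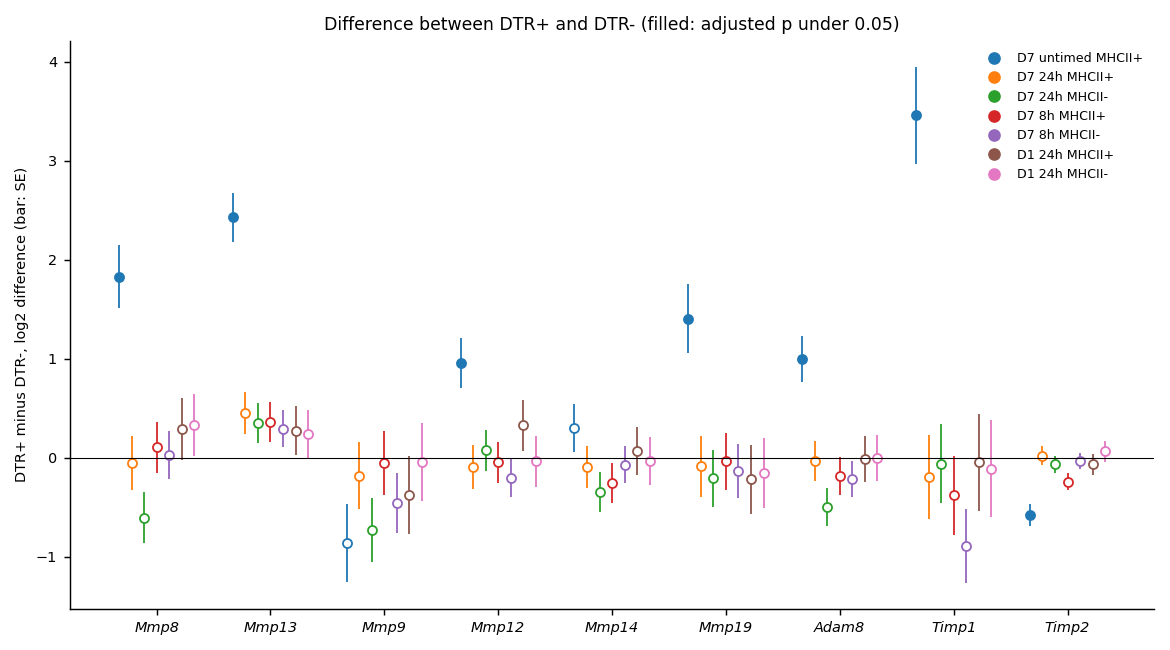
Log2 difference DTR+ minus DTR- (y axis) with its SE as a bar for each of the 9 genes (x axis) in 7 comparisons (colours); filled points passed at an adjusted p under 0.05. Filled points occur in the untimed set only, for 7 genes, and the 6 open Mmp13 points lie between 0.24 and 0.45.

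Across the 18 groups, the order of mean levels differed between genes. Mmp8 was highest in DTR+ MHCII- cells of day 1 (11.27 ± 0.39, SD, n = 2) and lowest in day 0 MHCII+ cells (6.79 ± 0.16, SD, n = 2). Mmp13 and Mmp12 were both highest in the untimed DTR+ group (11.80 and 13.17) and lowest in MHCII- cells of day 1 (7.75 in DTR- and 7.86 in DTR+ cells). Mmp9 was highest in day 0 MHCII- cells (11.55) and lowest in the untimed DTR+ group (7.00). Neighbours in these orders mostly did not differ beyond their spread: of 17 neighbouring pairs, 13 (Mmp13, Mmp12, Mmp14 and Timp2), 14 (Mmp8, Mmp9, Mmp19 and Adam8) or 16 (Timp1) differed by less than the larger group SD. The Timp1 gap of 1.51 between the untimed DTR+ group and the 8 h DTR- MHCII+ group was its only gap beyond that spread, and it parted the 4 day 1 groups and the untimed DTR+ group (11.03 to 11.77) from the other 13 groups.

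As a description over 18 group means, which share the same 45 arrays, Timp1 correlated with Adam8 at 0.91 and with Timp2 at -0.89, Mmp19 with Adam8 at 0.91 and with Timp2 at -0.91, Mmp12 with Mmp13 at 0.79 and with Mmp8 at -0.82. Around the group means, over 45 arrays, Mmp8 and Mmp12 correlated at 0.63 instead, and Mmp19 and Adam8 at 0.83. The genes whose 18 group means were most like those of a member were Tapt1 (0.96) for Mmp8, Tlr12 (0.96), Gbp8 and Cd274 for Mmp13, Ttl (0.90) for Mmp9, Itgax (0.96), Anpep and Axl for Mmp12, and Nek4 (0.93) for Mmp14. For Mmp19 they were Anxa2 (0.96), for Adam8 Psmd3 (0.95), for Timp1 Tomm40 (0.97), and for Timp2 Pcmtd2 (0.99), Cp and Arhgef3.

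Other genes of matrix turnover were counted from lists. Of 16 other MMPs measured, 4 reached the filter on low values. In the untimed set, where 11.5% of all genes passed, Mmp25, a membrane-anchored MMP of leukocytes, was higher in DTR+ cells (1.62 ± 0.18, adjusted p = 5e-08), and Mmp27, whose gene lies in the same cluster as Mmp8, Mmp12 and Mmp13, was lower (-1.44 ± 0.25, adjusted p = 5.8e-05). Of 9 ADAM and ADAMTS genes, Adamdec1 was higher (1.59 ± 0.18) and Adam19 (-1.16 ± 0.18) and Adam33 were lower. Of 10 cathepsin and cystatin genes, Cst7, a cystatin of leukocytes, was higher (2.19 ± 0.32, adjusted p = 6.6e-06), as was Ctsk, the collagen-cutting cathepsin K (1.62 ± 0.43, adjusted p = 0.0091). Of 6 plasminogen genes only Plgrkt, a plasminogen receptor, passed (0.78 ± 0.25), and Bsg, which induces MMPs, was the 1 regulator tested and was higher (0.35 ± 0.10). None of 13 matrix substrate genes passed. In the 6 comparisons with a DT time, none of the genes of these 6 lists passed.

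From day 0 to day 1, when 35.6% of all genes passed in MHCII+ and 25.6% in MHCII- cells, list genes moved both ways. In MHCII+ cells 5 of 10 cathepsin and cystatin genes rose and 0 fell, led by Ctsl, a lysosomal protease (1.67 ± 0.14, adjusted p = 1.6e-10); in MHCII- cells 0 rose and 2 fell, and the difference between the steps was 1.59 ± 0.20 for Ctsl (adjusted p = 3.3e-06). Of 9 ADAM and ADAMTS genes, Adam19 fell in both subsets (-2.25 ± 0.18 and -2.41 ± 0.18). In MHCII+ cells Adam17 (0.73 ± 0.13) and Adam10 (0.58 ± 0.15) rose and Adamts4 fell (-0.60 ± 0.14). In MHCII- cells Adam33 fell (-0.80 ± 0.13). Plau, the urokinase that turns plasminogen into plasmin, rose in MHCII+ cells (1.21 ± 0.19, adjusted p = 6.8e-06), where Mmp2, a gelatinase, fell (-1.31 ± 0.26, adjusted p = 1.9e-04). Mmp25 fell there too (-0.91 ± 0.18). Mmp27 rose in MHCII+ cells (0.62 ± 0.25) and fell in MHCII- cells (-0.79 ± 0.25). Of 13 matrix substrates, Vcan rose in both subsets (4.84 ± 0.70 and 4.57 ± 0.70) and Sparc fell (-1.69 ± 0.33 and -2.10 ± 0.33); Vcan is also 1 of the 4 monocyte genes. From day 1 to day 4, Mmp2 rose by 1.17 ± 0.26 in MHCII+ and 1.21 ± 0.26 in MHCII- cells, and Serpinb2, an inhibitor of plasminogen activators, fell (-2.06 ± 0.39 and -2.87 ± 0.39).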

How the data were processed

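RNA of 45 sorted macrophage samples was hybridised to Affymetrix arrays. The authors deposited linear RMA intensities; the submitters' processing notes name Affymetrix Power Tools and RMA, with no version known here. Intensities spanned 9.43 to 24649, and the array medians 174.7 to 203.7. RMA equalises the arrays' distributions before summarizing probes. From 24922 probe sets, 21425 had 1 symbol and gave 19752 genes; 11074 reached the median of all values (log2 7.57) in the mean of at least 1 group. The number of arrays, not a depth, limits the precision.

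Groups came from the titles. Log2 intensities of all 45 arrays entered 1 limma 3.58.1 model under R 4.3.3, a mean for each group (27 residual degrees of freedom), with an intensity trend and Benjamini-Hochberg adjustment within each of 29 comparisons; the fit was tested on simulated data. Figures used Python 3.11.15 and matplotlib 3.10.9. The members and lists were chosen with earlier results of these data known, and 2 comparisons were added after the data had been seen. Named genes were the 9 members, up to 4 list genes with the smallest p, and up to 3 genes per member with the most similar group means. Alternatives were other normalization, filters, pseudocount, array weights, the compared groups alone, the 8 h set as day 7, replicate block and leaving out each array. Replicate numbers were taken as pairs where 3 or more same-numbered pairs each correlated above 0.1, which held for the subsets of DTR- mice in the 8 h set (0.527, 0.480 and 0.583). The values given in the Results for that comparison still come from the fit without pairs, and the replicate block was run as an alternative. Comparisons with 2 shared numbers, some with positive correlations up to 0.691, were not taken as paired.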

Additional observations from a re-analysis of the deposited data

Results flagged for a closer look

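The genotype difference (DTR+ minus DTR-, MHCII+ cells, day 7) was not the same in the untimed set as in the sets with a DT time, by a test of the difference itself. Untimed minus 24 h, it was 3.66 for Timp1, 1.97 for Mmp13, 1.88 for Mmp8, 1.49 for Mmp19, 1.03 for Adam8 and -0.60 for Timp2 (log2). Untimed minus 8 h, it was 3.84 for Timp1, 2.06 for Mmp13, 1.72 for Mmp8, 1.44 for Mmp19 and 1.18 for Adam8. Against the 24 h and 8 h sets, Mmp19 was not past the threshold in 9 and 10 of 17 alternatives. For Adam8 these numbers were 8 and 2, and for Mmp8 1 and 2. Timp2 against the 24 h set was not past it in 2 of 17. The untimed set differs from the 24 h set in age and DT labelling, and from the 8 h set in gate as well; these cannot be told apart.

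The change between days differed between the subsets in DTR- mice. From day 0 to day 1 the MHCII+ change minus the MHCII- change was 1.22 for Mmp14 (not past the threshold in 5 of 15 alternatives) and 0.83 for Timp2. From day 1 to day 4 it was -2.12 for Mmp9, -1.48 for Mmp12 and -0.86 for Timp2. Mmp9 was not past the threshold in 10 of 15 alternatives, among them quantile normalization, and Mmp12 in 7 of 15.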

How the results depend on the processing

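The 81 member differences that passed kept their direction in each of 1061 alternative fits and their call in 922; 139 lost the call, 112 of them on leaving out 1 array. Counts of members that moved by over 1.5 times were as follows. With array weights, DTR+ MHCII- replicates 1, 2 and 3 of the 24 h set had weights of 0.46, 31.16 and 0.030. The weighted mean of that group thus rested almost wholly on replicate 2. Counts for the genotype in MHCII- cells were then 4 in place of 0 in the 24 h set. In the 8 h set they were 1 in place of 0 (Timp1, -1.40). For the subsets they were 4 in place of 2 at day 1 in DTR+ and in the 8 h set in DTR- cells. In DTR+ cells of the 24 h set they were 2 in place of 1. From day 4 to day 7 they were 3 in place of 1 in MHCII- and 0 in place of 2 in MHCII+ cells. With only the compared groups fitted, they were 4 and 6 in place of 2 and 2 for the subsets at day 1 in DTR- and DTR+, 0 in place of 1 and 1 in place of 3 in DTR+ cells of the 24 h and 8 h sets, and 0 and 1 in place of 1 and 2 from day 4 to day 7 in MHCII- and MHCII+ cells. In DTR+ cells of the 24 h set the count was 3 with quantile normalization and 2 with the stricter filter. With no filter the step from day 4 to day 7 gave 0 in MHCII- and 1 in MHCII+ cells, and with the 8 h set as day 7 it gave 0 in MHCII-. These causes were not tested.

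Leaving out each array gave counts of 5 to 7 for the genotype in the untimed set, 0 to 1 in MHCII+ cells of the 8 h set and 0 in the other 5 genotype comparisons. For the subsets they were 3 to 4 at day 0, 2 at day 1 in either genotype, 0 to 3 at day 4, 3 to 6 and 0 to 1 in DTR- and DTR+ cells of the 24 h set, and 2 and 2 to 4 in those of the 8 h set. Over days they were 5 to 7, 4 to 8 and 0 to 2 in MHCII+ cells and 5 to 8, 8 and 0 to 1 in MHCII- cells; for differences between the subsets' steps 1 to 2, 1 to 2 and 0; for the untimed set against the 24 h and 8 h sets 3 to 6 and 2 to 5.

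With the replicate number as a block, run for comparisons of 2 groups that share at least 2 numbers, 47 calls were kept and 1 was lost, Timp2 from day 4 to day 7 in MHCII+ cells, which left 1 member in place of 2, and 1 was gained, Mmp14 between the subsets in DTR- cells of the 24 h set (-0.51, adjusted p = 0.035); Mmp12 in the paired 8 h DTR- arrays was 1.01 (adjusted p = 0.005) with the block. Values that had not passed changed sign for Mmp14 between those subsets with array weights (0.029, adjusted p = 0.95) and for Mmp19 between genotypes in MHCII- cells of the 24 h set with array weights (0.30, adjusted p = 0.042) and without DTR- MHCII- replicate 3 (0.15, adjusted p = 0.97). For Mmp19 there, leaving out each array gave -0.40 to 0.15. The weighted Mmp19 value rests almost wholly on replicate 2 (weight 31.16) for its DTR+ mean.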
